A study of Mus musculus with 2 samples.

Results

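Classical monocytes were taken from CD45+ leukocytes of the mouse choroid, the vascular layer behind the retinal pigment epithelium (RPE), after injury of that epithelium with sodium iodate. The cells were chosen by their own transcripts. A barcode needed at least 1000 unique molecular identifiers (UMIs, each standing for 1 captured transcript), at least 300 genes and less than 10% mitochondrial UMIs. It could hold no UMI of Cd3e or Cd79a, T and B cell receptor genes, and fewer than 2 UMIs of Cd209a, a dendritic cell gene. The summed UMIs of F13a1, Chil3, Vcan and Thbs1, called C here, had to reach 3. C also had to exceed both N, the sum of Cd300e, Adgre4, Pparg and Fabp4, and T, the sum of Ace, Treml4 and Ceacam1. The rule kept 547 of 7400 cells, with 224 of 3982 in the IL-17RA CKO library (KO below) and 323 of 3418 in the IL-17ra fl library (flox below). No member barcode occurred in both libraries, which shared 3 kept barcodes in all.

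The KO library came from mice with a conditional knockout of Il17ra, which encodes the receptor subunit for interleukin-17, and the flox library from mice carrying the floxed allele. All mice had received NaIO3 at 20 mg/kg by intraperitoneal injection, so no uninjured choroid was compared. Live CD45+ cells were sorted after enzymatic digestion of RPE and choroid. The Cre driver, the deleted cell type, the number of animals, their age and the time after injection were not stated in the labels. Each group is 1 library, so nothing below was tested between animals. All intervals are at 95% and cover counting error only.

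Classical monocytes are bone marrow-derived blood cells marked in mice by Ly6C and the chemokine receptor CCR2. They enter injured tissue, where they can become macrophages or dendritic-like cells, whereas nonclassical monocytes patrol the vessel wall. F13a1 encodes the A subunit of coagulation factor XIII, Chil3 a secreted chitinase-like protein, Vcan the proteoglycan versican and Thbs1 the matrix protein thrombospondin-1. Type I interferon acts through transcription factors that bind a DNA element named ISRE before many antiviral genes.

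Promoters of 5 genes are shown because these genes were among those lowest in KO relative to flox classical monocytes. They were picked by hand after their values were seen. The letters are the 250 bases before the most upstream start of each gene in the table, 5′ to 3′ on the gene's strand, from RefSeq (GRCm38.p6). Capitals mark matches to an ISRE core, GAAA, any 2 bases and GAAA, on either strand, and overlapping matches run together.
Cxcl10 (chr5:92348890-92349139, minus strand): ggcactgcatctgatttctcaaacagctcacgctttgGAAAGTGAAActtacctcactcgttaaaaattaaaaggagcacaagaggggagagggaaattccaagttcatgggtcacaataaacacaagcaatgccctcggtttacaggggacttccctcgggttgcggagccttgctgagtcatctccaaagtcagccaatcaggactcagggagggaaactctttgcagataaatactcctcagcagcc
Ifit1 (chr19:34640639-34640888, plus strand): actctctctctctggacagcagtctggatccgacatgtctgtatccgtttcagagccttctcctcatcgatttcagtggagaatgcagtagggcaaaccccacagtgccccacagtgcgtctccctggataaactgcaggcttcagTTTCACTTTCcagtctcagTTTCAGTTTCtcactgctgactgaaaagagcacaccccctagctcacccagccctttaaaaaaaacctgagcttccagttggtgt
Rsad2 (chr12:26456453-26456702, minus strand): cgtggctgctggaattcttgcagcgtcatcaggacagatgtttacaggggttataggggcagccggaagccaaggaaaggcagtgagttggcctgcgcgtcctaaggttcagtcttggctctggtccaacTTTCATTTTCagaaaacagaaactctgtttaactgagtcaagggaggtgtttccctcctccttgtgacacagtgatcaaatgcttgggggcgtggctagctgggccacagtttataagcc
Ifit2 (chr19:34550444-34550693, plus strand): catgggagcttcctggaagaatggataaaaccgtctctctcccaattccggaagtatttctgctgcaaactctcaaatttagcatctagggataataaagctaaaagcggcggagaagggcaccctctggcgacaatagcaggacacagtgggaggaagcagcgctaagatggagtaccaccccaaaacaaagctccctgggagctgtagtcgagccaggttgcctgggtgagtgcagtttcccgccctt
Isg15 (chr4:156200819-156201068, minus strand): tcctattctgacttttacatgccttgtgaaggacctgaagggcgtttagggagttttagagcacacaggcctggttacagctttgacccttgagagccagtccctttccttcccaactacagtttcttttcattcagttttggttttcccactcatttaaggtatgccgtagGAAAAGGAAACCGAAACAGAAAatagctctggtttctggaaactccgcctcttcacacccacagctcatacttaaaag

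Of these 5, Ifit2 held no match, Cxcl10 and Rsad2 held 1 each, Ifit1 held 2 and Isg15 held 3 overlapping matches. Of the 15 genes named below as lowest in KO by a fixed rule of size, 12 had an entry and 7 of these (58.3%) held a match. Of the 15 named as highest by the same rule, 11 had an entry and 1 held a match. Across the table, 936 of 27025 genes (3.46%) had a match in a window of this length. Of the 25 genes in the type I interferon list, 17 had an entry, and 8 of these (47.1%) held a match. Of the 15 genes in the interferon-gamma list, 10 had an entry and 7 held a match. Irf7 also held none in this window. A match is a run of letters and not a measured binding site.

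The label was checked on genes that the rule did not use. Ly6c2, a surface protein of classical monocytes, stood at 1031.7 UMIs per 1000000 UMIs of the class total (CPM) in KO and 1329.2 CPM in flox classical monocytes. In cells led by N it stood at 23.4 CPM in KO and 199 CPM in flox. The chemokine receptor gene Ccr2 reached 1107 CPM in KO and 1220.5 CPM in flox members, against 131.4 CPM and 163.4 CPM in the N-led cells of KO and flox. These are classical monocyte genes, and in both libraries both were higher in the members than in N-led, T-led and Cd209a cells. Reads of Ly6c2 and its near-identical neighbour Ly6c1 may not all be told apart.

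**Figure D1:**
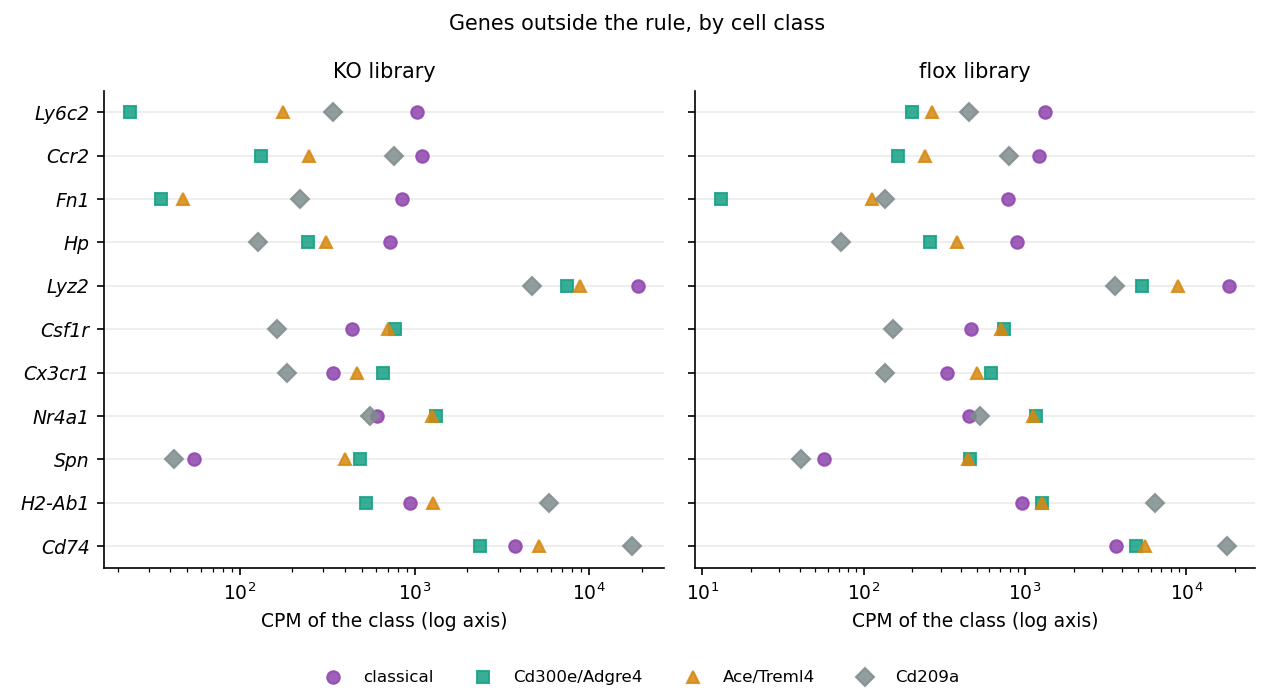
Levels of 11 genes outside the rule (CPM of the class, log axis) in the KO library (left) and the flox library (right), with 1 point for each of 4 cell classes. Classical monocytes lie to the right of the other classes for Ly6c2, Ccr2, Fn1, Hp and Lyz2 in both libraries.

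Genes at least 3-fold higher in classical monocytes than in N-led cells in both libraries numbered 55 of 1953 genes with at least 100 CPM in the higher class (2.82%), and 85 (4.35%) were at least 3-fold lower. The cells were chosen by expression, so these counts describe the contrast and test nothing. The higher genes included Fn1, which encodes the matrix protein fibronectin, at 23.7-fold in KO and 59.9-fold in flox. Slpi, a secreted protease inhibitor, was 33-fold higher in KO and 11.4-fold higher in flox. The lower genes included Cd36, a fatty acid receptor, with 26.2 CPM in KO and 30.1 CPM in flox members against 951.4 CPM and 782.5 CPM in N-led cells. Against T-led cells, 25 of 1840 genes (1.36%) were at least 3-fold higher and 45 (2.45%) at least 3-fold lower. Against Cd209a cells, 65 of 1790 genes (3.63%) were at least 3-fold higher and 47 (2.63%) at least 3-fold lower. There, members were lower in Flt3 and Clec10a, dendritic cell genes, and higher in Apoe and Msr1, a lipoprotein and a scavenger receptor gene of mononuclear phagocytes.

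Some members carried transcripts of other cell types. At least 10 UMIs from the macrophage and microglia, neutrophil, NK cell, mast cell and basophil, or RPE and photoreceptor markers were found in 20 KO members (8.93%) and 17 flox members (5.26%), a threshold chosen after the values were seen. The 10 macrophage markers, of which Sall1 was at 0 in both libraries, summed to 439.8 CPM in KO and 281 CPM in flox. 16 KO and 12 flox members held 10 or more of these UMIs. The 8 RPE and photoreceptor markers summed to 950.6 CPM in KO, with 99.2% of their UMIs in 2 cells, and to 8.15 CPM in flox. The 8 neutrophil markers summed to 5.17 CPM in KO and to 308.6 CPM in flox, where 2 cells held 97.6%. The genes and lists below whose ratio moves by over 1.5 times or changes sign without these cells are given with and without them. Other marker lists were left out of that count. At least 10 UMIs of the plasmacytoid dendritic cell list were found in 33 KO and 55 flox members, but its gene Bst2, which monocytes also express, made up 304.4 of its 313 CPM in KO and 380.2 of its 383 CPM in flox. The type 2 dendritic cell list reached 10 UMIs in 6 KO and 7 flox members, the platelet list in 3 KO and 1 flox members, and the B cell list in 0 KO and 4 flox members.

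Classical monocytes made up 5.63% of kept KO cells (4.93% to 6.39%) and 9.45% of kept flox cells (8.49% to 10.5%). The difference was -3.83 percentage points (-5.05 to -2.62). The share was lower in KO among cells with Xist and no Y-linked UMI (female cells), at 5.37% of 1565 KO cells and 8.63% of 2248 flox cells. It was also lower among cells with a Y-linked and no Xist UMI (male cells), at 7.32% of 1379 KO cells and 14.2% of 537 flox cells. Without the members carrying another type's markers, the shares were 5.12% in KO and 8.95% in flox. Shares of sorted cells also move with every other cell type in the sort.

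Among the 3 monocyte classes together, classical monocytes were 35.9% in KO (32.1% to 39.8%) and 46.1% in flox (42.3% to 49.9%). The N-led class held 6.88% of KO cells and 7.67% of flox cells, with a difference of -0.78 points (-1.98 to 0.40). The T-led class held 3.16% of KO cells and 3.39% of flox cells, with a difference of -0.23 points (-1.06 to 0.58). The Cd209a cells held 2.54% of KO cells and 3.98% of flox cells, with a difference of -1.44 points (-2.28 to -0.63). A lower share in KO was thus found in classical monocytes and Cd209a cells, and the intervals of the N-led and T-led differences included 0. Whether the classes differ in their differences was not tested.

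**Figure D2:**
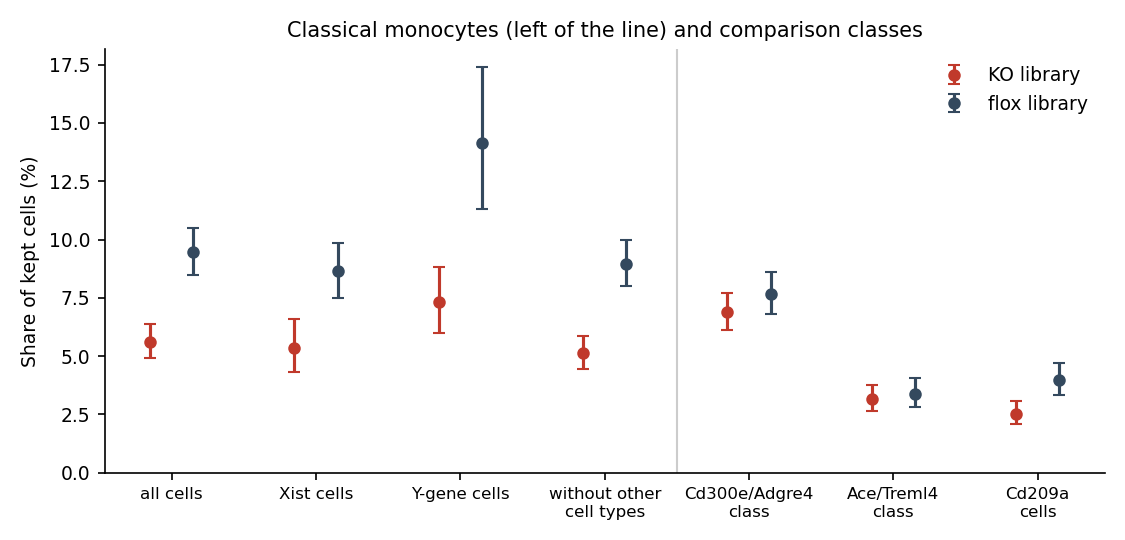
Share of kept cells (%) in the KO and flox libraries, as points with 95% exact binomial intervals. Left of the line are classical monocytes among all cells, Xist cells, Y-gene cells and without members carrying markers of other types, and KO lies below flox in all 4; right of the line are the 3 comparison classes.

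Depth was close between libraries. Members had a median of 16221 UMIs in KO and 14902 UMIs in flox, and their UMIs summed to 3478800 in KO and 4786400 in flox. Female cells were 37.5% of members in KO and 60.1% in flox, and male cells 45.1% in KO and 23.5% in flox. The matrices were written by Cell Ranger 7.0.1 for KO and Cell Ranger 4 for flox, so software version and genotype cannot be told apart. Whether both counted intronic reads alike was not stated. The flox matrix lists more barcodes than the barcode list of the kit version in the labels, so the kit is uncertain.

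At the threshold of the rule, 7 KO and 5 flox members had a C of 3, and 3 KO and 11 flox cells met every other condition with a C of 2. Ly6c2 stood at 356.7 CPM in the KO and 219 CPM in the flox members with a C of 3. In the cells with a C of 2 it was 310 CPM in KO and 480.7 CPM in flox. Most members lay far from the threshold of C, with a median C of 24 UMIs in KO (range 3 to 255) and 23 UMIs in flox (range 3 to 232). The other conditions also removed similar cells. Cd3e or Cd79a alone removed 30 KO and 23 flox cells, with Ly6c2 at 1048.7 CPM in KO and 749.7 CPM in flox. Cd209a alone removed 26 KO and 31 flox cells.

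The 4 choosing genes did not mark the same cells equally. F13a1 was detected in 90.2% of KO and 88.5% of flox members, Thbs1 in 75.5% and 69.4%, Chil3 in 63.4% and 70.6%, and Vcan in 46% and 45.2%, each with KO given before flox. Chil3 led the sum in 74 KO and 140 flox members, F13a1 in 77 KO and 108 flox members, and Thbs1 in 62 KO and 63 flox members. Transcripts of MHC class II, whose proteins present peptides to helper T cells, varied with the leading gene. Their summed level was 2611.4 CPM in Chil3-led KO members and 3204.3 CPM in Chil3-led flox members. In Thbs1-led members it was 10694.4 CPM in KO and 11675.6 CPM in flox. In F13a1-led members it was 7858.5 CPM in KO and 8682.2 CPM in flox. The Vcan-led members, 5 in each library, had 3642.7 CPM in KO and 4436.6 CPM in flox. Il1b, the cytokine interleukin-1 beta, was also higher in Thbs1-led members, at 2302.6 CPM in KO and 1901.6 CPM in flox, against 848.1 CPM and 1076 CPM in Chil3-led members of KO and flox.

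Levels also varied along C, where the lowest bin, a C of 3 or 4, holds 11 cells in each library. In KO, Hp, which encodes the haemoglobin-binding protein haptoglobin, stood at 832.2 CPM in members with a C of 20 or more and at 412.9 CPM in those with a C of 5 to 9. In flox these values were 1036.5 CPM and 539.1 CPM. H2-Ab1, an MHC class II chain, ran the other way, with 732.3 CPM at a C of 20 or more and 2110.4 CPM at 5 to 9 in KO, and 588 CPM and 2611 CPM in flox. The macrophage markers summed to 265.8 CPM at 20 or more and 1922.3 CPM at 5 to 9 in KO, and to 170.6 CPM and 751 CPM in flox. Median depth was 18338.5 UMIs at 20 or more and 8954 UMIs at 5 to 9 in KO, and 16563 UMIs and 10219 UMIs in flox. The part of macrophage markers and depth in these trends was not tested. With each cell thinned to 2000 UMIs, Hp had the highest mean Spearman correlation with C among 1289 genes, at 0.23 over 223 KO cells and 0.36 over 320 flox cells. Cd74, the MHC class II invariant chain, had the lowest, at -0.38 in KO and -0.35 in flox. These are correlations across cells that share a library, in sparse counts, and are descriptions only.

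**Figure D3:**
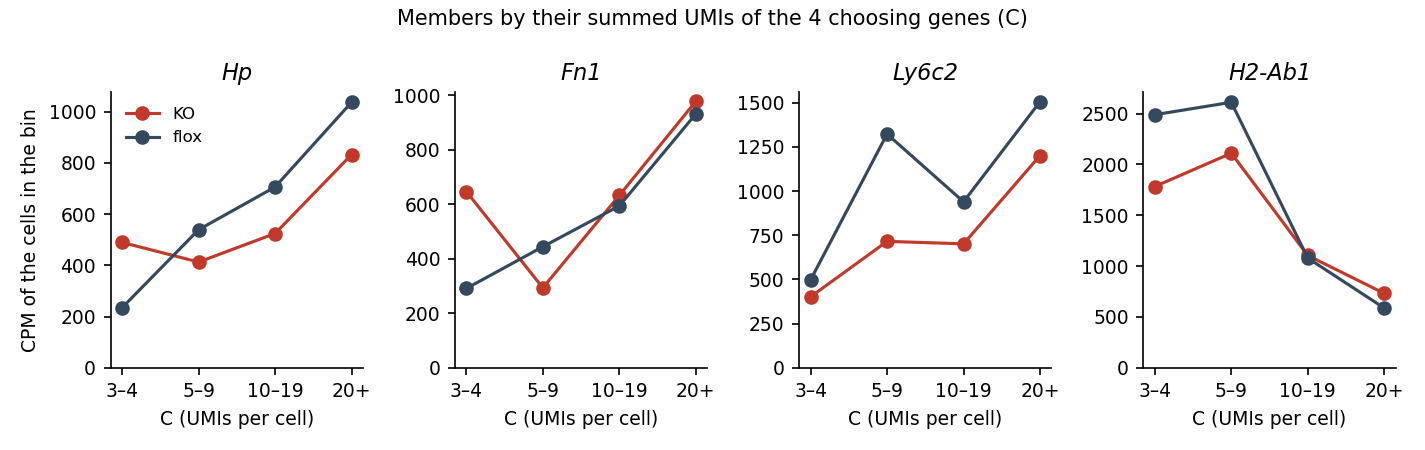
Level (CPM of the cells in each bin) of Hp, Fn1, Ly6c2 and H2-Ab1 against C, the summed UMIs of the 4 choosing genes per cell, with 1 line for KO and 1 for flox. H2-Ab1 is lower at a C of 20 or more (732.3 CPM in KO, 588 CPM in flox) than at 5 to 9, and Hp is higher there.

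Il17ra itself (chr6:120463247-120487559, GRCm38) had 225.1 CPM in KO members (209.6 to 241.4) and 221.3 CPM in flox members (208.1 to 235). The ratio of KO over flox was 1.02 (0.93 to 1.12). A 3′ tag outside the deleted exons would still be counted, so this gives no check of the deletion in these cells. In the receptor and response list, 2 of 8 measured genes were lower and 6 higher in KO, with a median log2 ratio of 0.12. Without the members carrying other types' markers, that median was -0.012. Zc3h12a, an RNase that limits inflammatory transcripts, had 74.2 CPM in KO and 57 CPM in flox.

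Interferon-induced transcripts were lower in KO than in flox classical monocytes. All 23 measured genes of the type I interferon list were lower, and 19 of the 23 were at least 1.5-fold lower. Over all 8586 genes with at least 50 UMIs, 347 (4.04%) were at least 1.5-fold lower and 441 (5.14%) at least 1.5-fold higher. The list's median log2 ratio was -0.98, beside 0.05 for all 10352 genes with at least 20 UMIs, of which 42.4% were lower. The summed level of the list was 4722.6 CPM in KO and 7845.8 CPM in flox.

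Cxcl10, whose product recruits T cells through the receptor CXCR3, had 44 CPM in KO (37.3 to 51.5), found in 20 of 224 cells. In flox it had 483.5 CPM (464 to 503.6), found in 72 of 323 cells. It was 11-fold lower in KO (9.33 to 13). Isg15, a ubiquitin-like modifier, had 218.2 CPM in KO and 737.5 CPM in flox, 3.38-fold lower (3.12 to 3.66). Rsad2, the antiviral enzyme viperin, had 51.7 CPM in KO and 283.9 CPM in flox, 5.49-fold lower (4.69 to 6.45). Isg15, Rsad2 and Cxcl10 are among the genes whose promoters held a match.

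Ifit1, which binds foreign RNA, had 33.3 CPM in KO, found in 30 cells, and 186.8 CPM in flox, found in 98 cells. It was 5.60-fold lower in KO, and its relatives Ifit2 and Ifit3 were 4.16-fold and 3.14-fold lower. Reads of Ifit1 and Ifit1bl1, and of Ifit3 and Ifit3b, may not all be told apart, since these are near-identical copies. Usp18, which removes ISG15 from proteins and restrains receptor signalling, had 30.8 CPM in KO and 108.9 CPM in flox. Irf7, a transcription factor that amplifies type I interferon, had 198.6 CPM in KO and 461.9 CPM in flox. The smallest differences were those of Ifi27l2a, at a ratio of 0.87 (0.85 to 0.90), and Bst2, the tethering protein tetherin, at 0.80 (0.74 to 0.86).

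**Figure D4:**
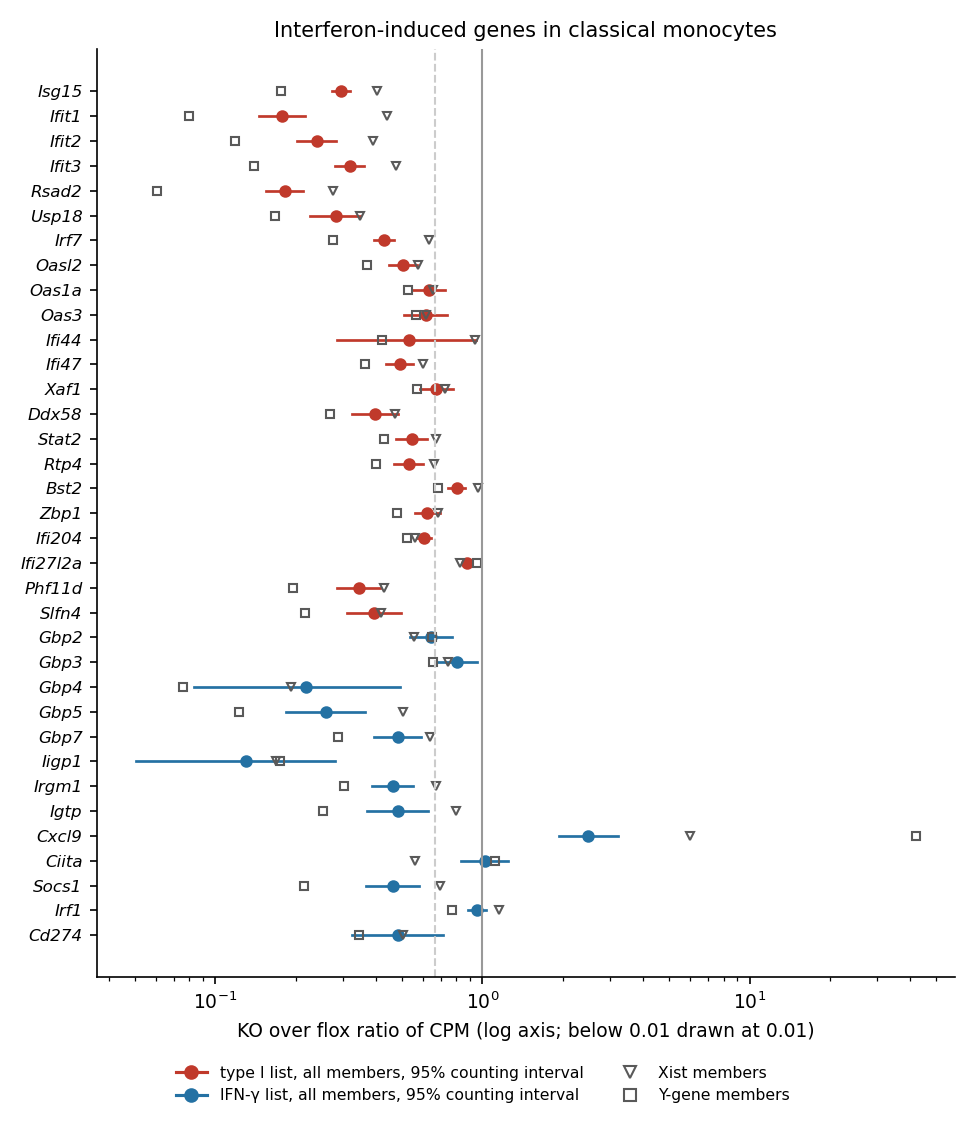
Ratio of KO over flox (log axis) for measured genes of the type I interferon and interferon-gamma lists in classical monocytes. Filled points with lines are all members with 95% counting intervals, open triangles Xist members and open squares Y-gene members; the dashed line marks 1.5-fold lower, and 19 type I genes lie at or left of it.

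The interferon-gamma list moved the same way, with 11 of 13 measured genes lower in KO and a median log2 ratio of -1.04. Gbp5, a guanylate-binding protein of antimicrobial defence, had 12.4 CPM in KO and 47.4 CPM in flox. Irgm1, an immunity-related GTPase, had 50.3 CPM in KO and 108.6 CPM in flox. Irf1 differed little, at 300.7 CPM in KO and 315.1 CPM in flox. Cxcl9 was higher in KO, at 52 CPM against 20.9 CPM in flox, with 88.4% of its KO UMIs and 89% of its flox UMIs in 1 cell each.

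Sex moved with the size of these differences. The type I list had a median log2 ratio of -0.74 in female members, where 23 of 23 genes were lower, and -1.45 in male members, where 22 of 22 were lower. Isg15 stood at 153.6 CPM in KO and 380.6 CPM in flox female members, and at 224.7 CPM in KO and 1273.6 CPM in flox male members. Gbp5 had a ratio of 0.50 in female and 0.12 in male members. For Isg15, the flox male members had the highest level of the 4 sets. Ly6a, which encodes the interferon-inducible surface protein Sca-1, had a KO over flox ratio of 0.995 in female and 0.069 in male members. Over all members, 38% of its KO UMIs and 29.3% of its flox UMIs lay in 1 cell each, so single cells weigh heavily in these ratios. The part of sex in these results was not tested beyond these values.

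The difference was also seen cell by cell. After thinning to 2000 UMIs, which left out 1 KO and 3 flox cells, the type I list summed to a median of 7 UMIs per KO cell and 10 UMIs per flox cell. At least 10 UMIs were found in 83 of 223 KO cells (37.2%, 30.9% to 43.9%) and 174 of 320 flox cells (54.4%, 48.7% to 59.9%). The 90th percentile was 17.8 UMIs in KO and 38 UMIs in flox. A Cxcl10 UMI was found in 4.48% of KO cells (2.17% to 8.09%) and 18.1% of flox cells (14.1% to 22.8%). In kept cells with a Cd3e or Cd79a UMI, a Cxcl10 UMI was found in 1.13% of 2651 KO cells and 3.12% of 2020 flox cells. This set is not T and B cells alone. Before thinning, 30 KO and 23 flox cells in it met every other condition of the rule. The median depth of the set before thinning was 7193.5 UMIs in KO and 7779.5 UMIs in flox. The share in classical monocytes was above that of the set in both libraries. By number, the set held more cells with a Cxcl10 UMI. It held 30 in KO and 63 in flox, against 10 KO and 58 flox classical monocytes. Which cells were the main source of Cxcl10 was not tested.

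**Figure D5:**
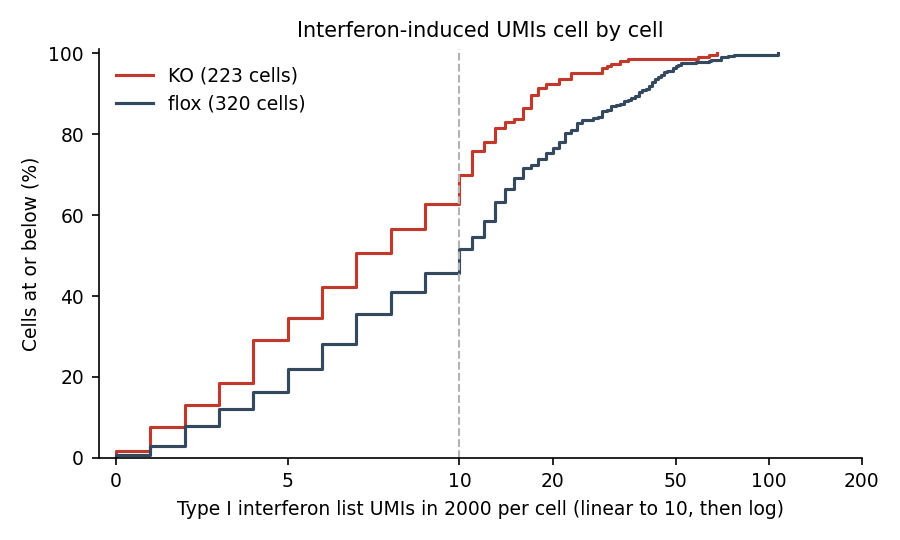
Cumulative share of cells (%) against the UMIs of the type I interferon list in 2000 UMIs per cell, for 223 KO and 320 flox classical monocytes. The dashed line marks 10 UMIs, reached by 37.2% of KO and 54.4% of flox cells, and the KO curve lies above the flox curve.

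Other cell classes showed the same direction. The type I list had a median log2 ratio of -0.87 in N-led cells (20 of 21 genes lower), -0.34 in T-led cells (18 of 22) and -0.94 in Cd209a cells (21 of 22). In T-led cells the difference was weaker, and Isg15 had 101.9 CPM in KO and 110.1 CPM in flox. Ifit3 was higher in KO there, at 37.1 CPM against 25.6 CPM in flox. The interferon difference is therefore not particular to classical monocytes. MHC class II had a median of 0.03 in classical monocytes, -1.20 in N-led cells, -0.11 in T-led cells and -0.09 in Cd209a cells. Within the sexes, the classical monocyte median over 7 genes was -0.33 in female and -0.13 in male members. Differences between these medians were not tested.

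Genes at least 1.5-fold higher in KO outnumbered those lower over all genes with at least 50 UMIs (441 against 347), but not among well-detected genes. By the naming rule, which asks for 100 UMIs, 50 CPM, detection in 10% of cells of the higher library and a 1.5-fold ratio, 22 of 3405 genes were higher and 113 lower. Ccl3, a chemokine for monocytes and T cells, had 201.5 CPM in KO and 103 CPM in flox, with 18.4% and 18.1% of its UMIs in 1 cell of KO and of flox. Ptgs2, the cyclooxygenase of prostaglandin synthesis, had 110.4 CPM in KO and 63.9 CPM in flox. C5ar1, the receptor for complement fragment C5a, had 96 CPM in KO and 54.3 CPM in flox, with a ratio of 1.12 in female and 2.25 in male members. Cd300lb, an activating surface receptor of myeloid cells, had 108.9 CPM in KO and 59.5 CPM in flox, with a ratio of 1.69 in female and 2.10 in male members. Slc15a2, a peptide transporter, had 80.8 CPM in KO and 45.1 CPM in flox. Msmo1, an enzyme of cholesterol synthesis, had 74.5 CPM in KO and 46.4 CPM in flox. Cd300lb, Slc15a2 and Msmo1 were each at least 1.5-fold higher in KO in female and in male members. Lmna, a nuclear lamin, had 52.9 CPM in KO and 27.2 CPM in flox. Trf, the iron carrier transferrin, was 2.06-fold higher with all members and 1.11-fold higher without those carrying other types' markers, and its ratio was 1.03 in female and 2.33 in male members.

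Coagulation and matrix genes were higher in 14 of 18 measured cases, with a median log2 ratio of 0.20, beside 57.6% higher over all genes. Of 16 with at least 50 UMIs, 2 were at least 1.5-fold higher and 2 at least 1.5-fold lower. Over all genes with at least 50 UMIs, 5.14% were at least 1.5-fold higher and 4.04% at least 1.5-fold lower. Thbd, the anticoagulant receptor thrombomodulin, had 105.2 CPM in KO and 69.4 CPM in flox, a ratio of 1.52 (1.304 to 1.77). Serpinb2, an inhibitor of plasminogen activators, had 82.2 CPM in KO and 60 CPM in flox, with a ratio of 1.32 in female and 2.31 in male members. F13a1, Thbs1 and Vcan chose the cells and are given as description, with ratios of 1.14, 1.34 and 1.51. They are counted in the values of this list, and Vcan is among the 2 genes at least 1.5-fold higher. Chil3 had a ratio of 0.89.

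Immediate early genes, which respond within minutes to stimulation or handling, were higher in 14 of 15 cases, with a median of 0.24. Only 1 of the 15 was at least 1.5-fold higher. In female members 5 of 15 were lower (median 0.12), and in male members 2 of 15 (median 0.29). The medians were also positive in N-led (0.15), T-led (0.32) and Cd209a cells (0.13). Egr1 had 144.6 CPM in KO and 91.1 CPM in flox, and Nr4a1, a nuclear receptor that nonclassical monocytes need, had 606.5 CPM in KO and 450.9 CPM in flox. Without the members carrying other types' markers the ratio of Egr1 was 1.295. Among monocyte transcription factors, 14 of 16 were higher, with a median of 0.19. Klf2 had 662.3 CPM in KO and 466.7 CPM in flox. All genes together were more often higher than lower, at 57.6% of 10352.

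Classical monocyte genes outside the rule had a median log2 ratio of -0.01, with 13 of 24 lower in KO. Ms4a4c, a membrane protein of the MS4A family, had 500.2 CPM in KO and 787 CPM in flox. Fcgr1, the high-affinity IgG receptor, had 152.6 CPM in KO and 250.7 CPM in flox. Lyz2, the lysozyme of myeloid cells, had 19081.6 CPM in KO and 18430.6 CPM in flox. Of granule and antimicrobial genes, 11 of 16 were lower, with a median of -0.15. That list includes Chil3, which helped choose the cells. S100a8 and S100a9, calcium-binding proteins abundant in neutrophils, had 2.3 CPM and 0.288 CPM in KO and 133.5 CPM and 157.7 CPM in flox. In flox, 59% and 62% of their UMIs lay in 1 cell. Without members carrying other types' markers, S100a8 had 2.5 CPM in KO and 6.63 CPM in flox, and S100a9 had 0.313 CPM in KO and 0.442 CPM in flox.

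Cytokine and chemokine genes were split, with 11 of 23 lower in KO and a median log2 ratio of 0.03. Il1rn, the interleukin-1 receptor antagonist, had 23.3 CPM in KO (18.5 to 28.9) and 58.5 CPM in flox (51.9 to 65.8), lower in KO in both female and male members. Il1r2, the decoy receptor for interleukin-1, had 21.3 CPM in KO and 59.3 CPM in flox, with a ratio of 0.66 in female and 0.24 in male members. Il18 had 53.2 CPM in KO and 76.1 CPM in flox. Cxcl2, a neutrophil attractant, had 442.4 CPM in KO and 656 CPM in flox, with a ratio of 0.84 in female and 0.42 in male members. Il1b had 1301.3 CPM in KO and 1120 CPM in flox. Ccl7, a CCR2 ligand, was 14.5-fold higher in KO, but 45.5% of its KO UMIs lay in 1 cell, and the ratio was 4.25 without members carrying other types' markers.

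Other lists differed less than the interferon lists. Pattern recognition genes had a median log2 ratio of -0.09, with 9 of 15 lower in KO. Cd14, a lipopolysaccharide co-receptor, had 914.4 CPM in KO and 738.3 CPM in flox, but a ratio of 0.97 in female members. Tlr2, a receptor for bacterial lipoproteins, had 101.5 CPM in KO and 111.4 CPM in flox. Adhesion and trafficking genes had a median of 0.02, with 8 of 17 lower. Itga4, an integrin chain that binds VCAM-1, had 661.4 CPM in KO and 677.1 CPM in flox.

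Oxidative stress and iron genes had a median of -0.09, with 10 of 15 lower. Slc7a11, the cystine importer, had 109.5 CPM in KO and 155 CPM in flox. Cybb, the catalytic subunit of the phagocyte NADPH oxidase, had 1085.1 CPM in KO and 1268.6 CPM in flox. Glycolysis and hypoxia genes had a median of -0.05, with 9 of 14 lower, and Ldha, lactate dehydrogenase, had 224.5 CPM in KO and 239.2 CPM in flox. Proliferation genes had a median of -0.24 over 10 genes, and their intervals were wide. Without the members carrying other types' markers, the proliferation median was 0.16. Mki67, a marker of cycling cells, had a UMI in 14 KO and 32 flox members, with a ratio of 0.62 (0.33 to 1.105) that was 0.55 in female and 1.135 in male members. Nonclassical monocyte genes had a median of 0.08, with 8 of 20 lower, but the rule itself capped some of them.

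Macrophage maturation and complement genes depended on the members carrying markers of other cell types. The macrophage maturation list had a median log2 ratio of 0.25 with all members and -0.03 without them. The complement list had 0.49 with all members and -0.39 without them. List medians near 0 also changed sign without these members. They became -0.03 for MHC class II, -0.05 for cytokines and chemokines, and 0.0007 for oxidative stress and iron. Those of adhesion and trafficking and of classical monocyte genes outside the rule became -0.008 and 0.002. Cfb, the complement factor B of the alternative pathway, had 14.7 CPM in KO and 44.7 CPM in flox. Its ratio was 0.33 with all members and 0.35 without those carrying other types' markers.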

How the data were processed

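The study measured 3′ transcripts of single CD45+ cells from 2 libraries, KO and flox, 1 per group. The genome build was mm10 and the counting tool Cell Ranger, per the submitters' processing notes, and the matrices were written by Cell Ranger 7.0.1 (KO) and Cell Ranger 4 (flox), per the file headers. The deposited values are raw counts of UMIs per gene and barcode. The KO matrix holds 4096 called barcodes and 35944330 UMIs, and the flox matrix 1002803 barcodes, of which 783281 have a UMI, and 38623933 UMIs. The same filter was applied to both.

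UMIs were summed over the members of each library and given as CPM of that sum, with exact Poisson intervals. Ratios have conditional exact binomial intervals and shares Clopper-Pearson intervals, with Newcombe intervals for their differences. With 1 library per group, no p-value or test between groups is given. A list's median log2 ratio was taken over genes with at least 20 UMIs, with 0.5 UMIs added. Genes were named by size, up to 15 in each direction. Other genes were named as examples of a list after their values were seen. The members and the lists were chosen with earlier results of these data known. Doublets were called with Scrublet in Scanpy 1.11.5, at 56 of 3982 KO cells (1.41%) and 17 of 3418 flox cells (0.497%), of which 0 KO and 1 flox cells were members, and left in, except as an alternative. The free RNA profile came from flox barcodes with 100 UMIs or fewer and was used for both libraries, since the KO matrix holds called barcodes only. Its allowed share was the lowest of the haemoglobin, T cell and B cell receptor groups, each summed over its genes, at 0.138% in KO and 0.386% in flox. This summing was settled after a minimum over single genes had allowed no subtraction at all. Ratios and intervals were run on simulated Poisson sums, which leave out the clustering of UMIs in single cells. That run cannot show how the intervals hold for genes with clustered UMIs. Coordinates are those of GENCODE vM21. Mx1 and Mx2 were not analysed here, and a few genes of the lists and of the naming rule are not reported here. Python 3.11.15, NumPy 2.4.6, SciPy 1.17.1 and statsmodels 0.14.6 were used.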

Additional observations from a re-analysis of the deposited data

Results flagged for a closer look

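In 3 genes found in at least 10% of members of a library, the KO over flox ratio ran in opposite directions in female and male members, with both counting intervals beyond 1.5-fold. Mrc1, the macrophage mannose receptor, had a ratio of 7.53 in female members (108.5 CPM in KO, 14.4 CPM in flox) and 0.307 in male members (8.89 CPM in KO, 29 CPM in flox). C1qb, a complement chain of tissue macrophages, had a ratio of 5.02 in female members (216.9 CPM in KO, 43.2 CPM in flox) and 0.462 in male members (67 CPM in KO, 144.9 CPM in flox). Bambi, a pseudoreceptor of the TGF-beta family, had a ratio of 0.327 in female members (18.1 CPM in KO, 55.2 CPM in flox) and 3.34 in male members (62.9 CPM in KO, 18.8 CPM in flox). Members carrying macrophage markers, 16 in KO and 12 in flox, hold most of the macrophage marker UMIs (82.6% in KO, 69.2% in flox). The difference between the sexes was not tested, and the part of these cells in it was not tested.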

How the results depend on the processing

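No paired analysis was possible because each group is 1 library. Each list was given a range, from the median of its genes' lower interval bounds to the median of their upper bounds. That range is the width for a typical gene and not a counting interval of the list median. Of 377 recomputed list medians, 351 stayed inside their range, 21 left it and 5 changed direction. Single named genes moved more often. Of 551 recomputed ratios, 463 stayed inside their counting interval, 85 left it and 3 changed direction, and of the 285 for the lower genes 53 left it. A change of direction was counted only where the range or interval excluded no difference, so other changes of sign are among the rest. The share difference was -2.32 points when cells were thinned to 2000 UMIs before the rule and -6.83 points in male cells. The type I interferon median was -0.71 after that thinning, -0.74 in female cells, -1.45 in male cells and -0.79 with the mean of each cell's CPM, and it was negative under every alternative run. The interferon-gamma median was -0.33 after that thinning, -0.64 in female cells and -1.52 in male cells. The share of cells with at least 0.5% of UMIs in interferon genes differed by -25.7 points in male members, against -17.2 points in all. Genes at least 1.5-fold lower and higher numbered 147 and 115 after that thinning, 668 and 851 with a minimum of 20 UMIs, and 157 and 70 with a minimum of 200 UMIs. The complement median was -0.52 with F13a1 left out of C, -0.19 in male cells and -0.39 without members carrying other types' markers. The macrophage maturation median was -0.21 with F13a1 left out of C and -0.034 without those members. Ccl12 stood at 0.45 and F630028O10Rik at -0.19 on the log2 scale after the thinning, and Ly6a at 0.0087 in female cells. The alternative without those members was chosen after seeing the data. The other causes were not tested. Free RNA subtraction removed under 0.4% of UMIs and moved no list median out of its range, so it says little about larger contamination.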
